A study of Canis lupus familiaris with 25 samples.

Results

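Collagen chains were described in canine perianal tumors and their metastases from QuantSeq 3′ counts, which come from near the 3′ end of each transcript and were therefore not divided by gene length. The chains were all genes of the count table whose symbol was COL, a number, the letter A and a number, which gave 42 of 24532 genes. The tissue was archival FFPE (formalin-fixed, paraffin-embedded) material in 25 samples. The benign tumor was HGA, the hepatoid gland adenoma, with 10 samples, and the malignant one was AGASAC, the adenocarcinoma of the anal sac's apocrine glands, with 11 primary tumors and 4 metastases in sublumbar lymph nodes. Metastases 1 to 4 came from the dogs of primary AGASAC 1 to 4, and within each tumor type the labels give every other sample a number of its own. The dogs with HGA were 8 to 14 years old (median 12), 5 females and 5 males, of which 4 were neutered. The dogs with primary AGASAC were 8 to 12.5 years old (median 10), 5 females and 6 males, of which 9 were neutered, and the 4 dogs with a sampled metastasis were 8 to 10 years old with 3 neutered. The breeds were mixed in both tumors, so the p-values measure the spread between dogs that also differed in breed, sex and age.

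Total counts per sample ran from 1562347 to 6389555 in HGA, from 2581453 to 4218340 in primary AGASAC and from 2857541 to 3289546 in the metastases. DV200, the percentage of RNA fragments over 200 bases, was 70.5 to 92.7 in HGA, 70.2 to 84.4 in primary AGASAC and 71.8 to 82.9 in the metastases. Levels are given as CPM, counts per 1000000 after TMM scaling over all 25 samples, and 3 counts, which a count of 0 allows, equaled 0.543 to 1.84 CPM in HGA, 0.729 to 1.05 CPM in primary AGASAC and 0.796 to 0.973 CPM in the metastases. These floors and all counting intervals cover counting error only. The labelled tumor types were checked with epithelial markers. The summed level of 6 basal and squamous markers had a median of 5981 CPM in HGA, 3.101 CPM in primary AGASAC and 4.86 CPM in the metastases. Its most abundant gene was the basal keratin KRT14, at 2359 to 11496 CPM in HGA and at most 9.18 CPM in AGASAC of either site, while the keratin KRT79 was at 39.1 to 2427 CPM in HGA and had 0 counts in the 11 primary AGASAC, and the desmosomal cadherin DSG3 was at 32.2 to 109 CPM in HGA and at most 0.834 CPM in AGASAC. The summed level of 7 simple gland epithelium markers had medians of 569.7 CPM in HGA, 8878 CPM in primary AGASAC and 8147 CPM in the metastases. The secreted protein PIP, its most abundant gene, was at 887 to 5916 CPM in primary AGASAC and at most 1.23 CPM in HGA, the simple keratin KRT8 was at 227 to 758 CPM and at most 0.452 CPM, and the immunoglobulin receptor PIGR at 11.1 to 1955 CPM and at most 0.570 CPM. Between HGA and primary AGASAC all 5 tested basal markers were “up” in HGA and all 7 gland markers were “down”, so no sample went against its label in these summed levels, although HGA 10 had the lowest KRT79 of the HGA.

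Collagens are proteins of the extracellular matrix in which 3 chains wind into a triple helix. Fibrillar collagens form the fibers of connective tissue and are made mainly by fibroblasts, whereas collagen IV chains form the sheet of the basement membrane under epithelium and around vessels. Other classes attach epithelium to the tissue below, decorate the fibers or span the cell membrane, and carcinomas are known for a stroma rich in collagen.

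The summed level of the 42 collagen genes was 1547 to 5740 CPM in HGA (median 3463), 1022 to 8811 CPM in primary AGASAC (median 4384), and 964, 14939, 1719.8 and 3448 CPM in metastases 1 to 4. Metastasis 2 was the sample with the most collagen counts for its depth and metastasis 1 the one with the fewest, so the 4 metastases spanned more than either tumor. Collagen made up 0.146 to 0.518% of the counts in HGA, 0.0967 to 1.00% in primary AGASAC and 0.0906 to 1.71% in the metastases. The 3 chains of collagens I and III, COL1A1, COL1A2 and COL3A1, held a median of 56.2% of the collagen CPM in HGA, 73.8% in primary AGASAC and 64.7% in the metastases. In these bulk samples fewer cells of a type and less RNA per cell cannot be told apart, and this holds for every collagen below.

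**Figure D1:**
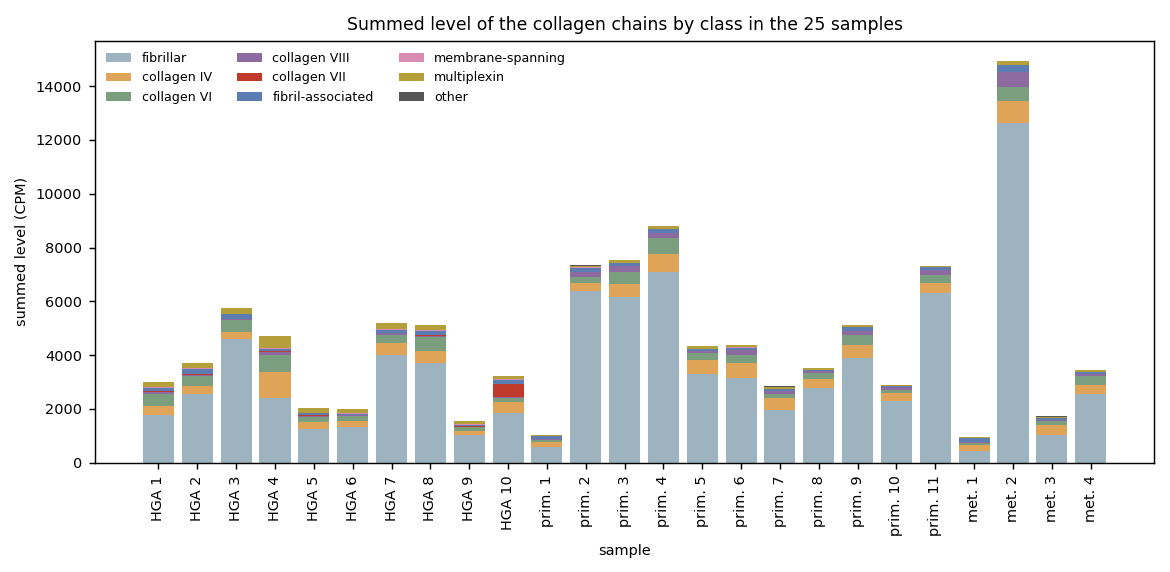
Each bar is a sample, and its height is the summed CPM of the 42 collagen genes, split by class. Fibrillar chains were the largest segment of each bar, metastasis 2 reached 14939 CPM, and the collagen VII segment was tallest in HGA 10.

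Of the 42 genes, 25 passed the filter on low counts between HGA and primary AGASAC, 23 between the metastases and the primary AGASAC of the same dogs, and 26 between HGA and the metastases. The filter kept 28 genes in at least 1 comparison, and the 14 that passed in none had 3 to 319 counts over all 25 samples. A gene was called at a Benjamini-Yekutieli (BY) adjusted p of at most 0.05 by edgeR's quasi-likelihood test over all tested genes and a log2FC of at least 1 or at most −1. HGA relative to primary AGASAC had 4 collagens “up” and 5 “down” of 25, beside 12.6% “up” and 12.5% “down” among all 12070 genes tested. With no filter on low counts 9 collagens were “up” and 6 “down” of 42, beside 1910 and 2041 of 24332 genes. DESeq2 also called 9 “up” and 6 “down” of 42, beside 2071 and 2278 of 24332 genes. HGA relative to the metastases had 2 “up” and 0 “down” of 26, beside 8.4% and 7.69% of 13195 genes by edgeR. An unadjusted p under 0.05 was found for 11 of these 26 collagens, beside 5431 of the 13195 genes. DESeq2 called 7 “up” and 2 “down” of 40, beside 1628 and 1400 of 23678 genes. The metastases relative to the matched primary AGASAC had 0 of 23 called by edgeR, beside 0% and 0% of 12629 genes, in a fit that did not pair the dogs. At an unadjusted p under 0.05 edgeR had 0 of the 23, beside 145 of the 12629 genes. DESeq2 called 0 of 39, beside 1 “up” and 4 “down” of 22156 genes. Its unadjusted p was under 0.05 in 1 of the 39, beside 274 of the 22156. The median log2FC of the tested collagens was 0.08, 0.25 and −0.13 in the same order of comparisons, beside −0.03, 0.02 and 0.00 over all tested genes. The comparisons share samples, since HGA stand in the first and second, primary AGASAC 1 to 4 in the first and last, and the metastases in the second and last.

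**Figure D2:**
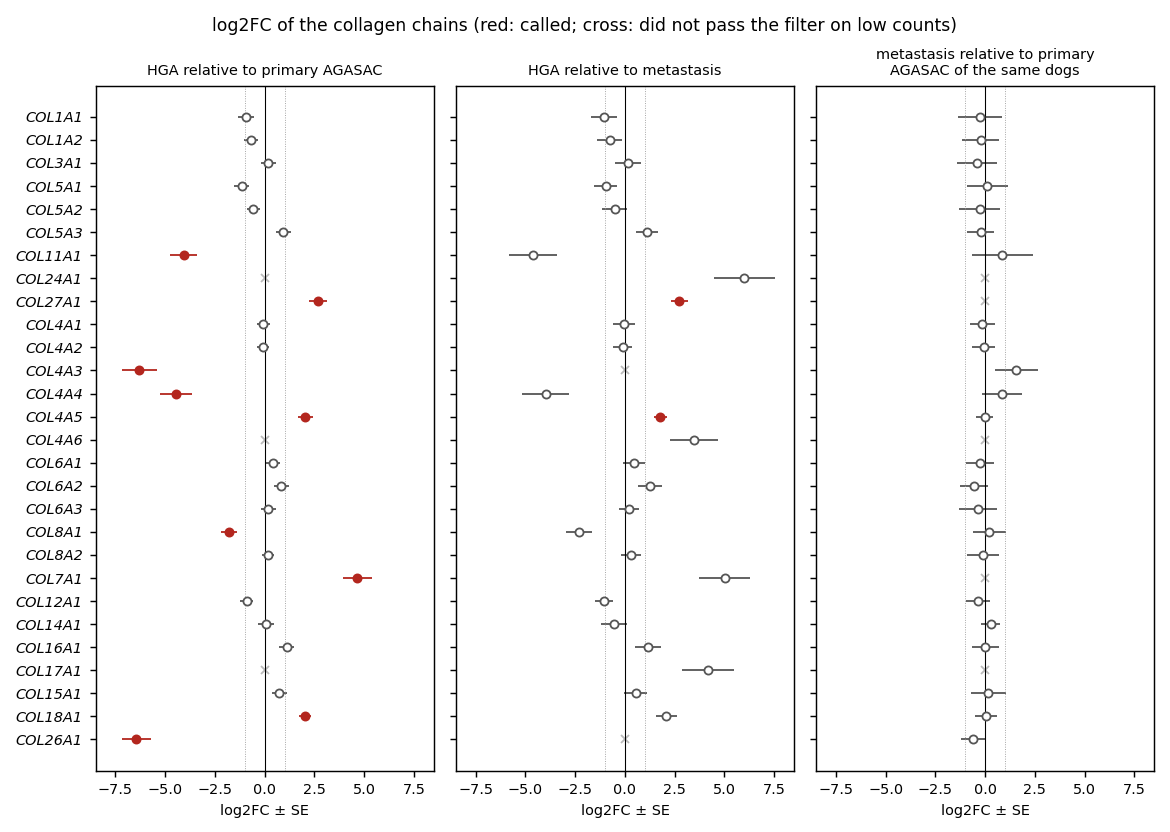
Points are the log2FC with its standard error for the 28 collagens tested in at least 1 comparison, ordered by class, with called genes in red. Red points lay on both sides of 0 for HGA relative to primary AGASAC, from −6.44 for COL26A1 to 4.64 for COL7A1, and no point was red for the metastases relative to the matched primary AGASAC.

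Fibrillar collagens are the fibers of the stroma, and the abundant chains of this class overlapped between the tumors, whereas called differences were in minor chains. The class had 8 of 11 genes tested between HGA and primary AGASAC, with 1 “up” (COL27A1), 1 “down” (COL11A1) and a median log2FC of −0.62. COL1A1, the main chain of collagen I, was at 522 to 2483 CPM in HGA (median 1162), at 291 to 4554 CPM in primary AGASAC (median 2057), and at 243, 7981, 609 and 1654 CPM in metastases 1 to 4. Primary AGASAC 2, 3, 4 and 11 lay above all HGA, primary AGASAC 1 lay below all HGA, and the other 6 lay in the HGA range. Its log2FC of −0.95 (SE 0.39) did not pass the test (BY-adjusted p = 0.483 by edgeR). COL1A2, its partner chain, was at 171 to 1285 CPM in HGA (median 366), at 151 to 1400 CPM in primary AGASAC (median 677) and at 119, 2469.7, 281 and 538 CPM in the metastases, with a log2FC of −0.68 (SE 0.36). COL3A1, the chain of collagen III in soft tissue and vessel walls, was at 147 to 977 CPM in HGA (median 513), at 101 to 889 CPM in primary AGASAC (median 388) and at 57.1, 1400.0, 101 and 281 CPM in the metastases, with a log2FC of 0.19 (SE 0.36). Metastasis 2 was the highest and metastasis 1 the lowest of all samples in each of these 3 chains, and primary AGASAC 1, from the dog of metastasis 1, was the lowest primary AGASAC. The ratio of COL1A1 to COL1A2 CPM had medians of 2.74 in HGA, 2.88 in primary AGASAC and 2.62 in the metastases.

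The fibroblast markers beside these chains had 0 of 7 tested genes called by edgeR between HGA and primary AGASAC, beside 12.6% “up” and 12.5% “down” among all tested genes. Their summed level had medians of 198 CPM in HGA, 200.5 CPM in primary AGASAC and 115 CPM in the metastases, with THY1 as the most abundant gene. It was highest in HGA 3 at 451 CPM and in metastasis 2 at 388 CPM, and lowest in metastasis 1 at 63.6 CPM and primary AGASAC 1 at 83.5 CPM. No gene of the list was at 0 in all samples, and its part in the collagen levels was not tested.

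COL27A1, a minor fibrillar chain known from cartilage, was at 16.0 to 36.2 CPM in HGA (median 23.3), at 0 to 8.68 CPM in primary AGASAC (median 3.61) and at 1.62, 8.49, 2.25 and 2.56 CPM in metastases 1 to 4. Each of the 10 HGA lay above each of the 11 primary AGASAC and the 4 metastases. The log2FC of HGA relative to primary AGASAC was 2.69 (SE 0.44, BY-adjusted p = 0.000254 by edgeR). Within RNA extraction batches 5, 6 and 8 it was 2.93, 2.13 and 3.04, and within sequencing file naming series A it was 3.84. These batches held 3 HGA and 3 primary AGASAC, 3 and 2, and 2 and 3, and naming series A held 9 and 3. Within these smaller subsets edgeR called 0 of 25 collagens in batch 5 and 2 of 26 in batch 6 (COL7A1 and COL4A4). It called 1 of 28 in batch 8 (COL24A1, which was not tested over all samples) and 6 of 30 in series A. Over all genes the calls were 160 “up” and 102 “down” of 12356 in batch 5, and 347 and 290 of 13159 in batch 6. They were 220 and 118 of 13758 in batch 8, and 1134 and 1023 of 13433 in series A. The 9 collagens called over all samples had a log2FC of the same sign in each batch, as had the 8 of them that were tested in series A. These subsets are parts of the samples that gave the calls, so the shared sign is not an independent check. HGA counts of 0 also fixed the sign of COL26A1 in batches 5, 6 and 8 and of COL4A3 in batches 6 and 8.

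COL11A1, a minor fibrillar chain that limits fibril width in cartilage and is known from carcinoma stroma, was at 0 to 6.02 CPM in HGA (median 0.693), at 3.32 to 66.6 CPM in primary AGASAC (median 18.3) and at 4.22, 147, 0.965 and 0 CPM in metastases 1 to 4. HGA 10 and HGA 4, the highest HGA, lay above primary AGASAC 1, HGA 10 also above primary AGASAC 7, and the metastases covered the ranges of both tumors. Relative to primary AGASAC the log2FC of HGA was −4.06 (SE 0.68, BY-adjusted p = 0.000319 by edgeR), and within extraction batches 5, 6 and 8 and series A it was −3.66, −3.54, −5.76 and −4.47. Relative to the metastases the log2FC of HGA was −4.61 (SE 1.198, BY-adjusted p = 0.0735 by edgeR), which became −0.12 without metastasis 2 and −5.02 without metastasis 4, where edgeR called it.

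COL24A1 and the other collagens below that were neither called nor among the 6 most abundant were chosen for naming after their values had been seen. COL24A1, a minor fibrillar chain known from developing bone, had 1409 counts over the 10 HGA, 4 over the 11 primary AGASAC and 10 over the metastases. In HGA it split the samples, with 7 HGA at 20.5 to 110 CPM and HGA 1, HGA 5 and HGA 8 at 0.181, 1.08 and 2.88 CPM. Primary AGASAC were at 0 to 0.653 CPM and the metastases at 0, 2.39, 0.322 and 0 CPM, so the lowest 3 HGA lay in or close to the range of AGASAC. It did not pass the filter beside primary AGASAC, and beside the metastases its log2FC of 6.01 (SE 1.51) did not pass the test (BY-adjusted p = 0.0593 by edgeR). There it was called without HGA 1, HGA 5 or HGA 8, with log2FC of 6.16, 6.14 and 6.13. Without metastasis 2, which held 9 of the 10 counts of the metastases, the value was 8.37 against 1 count and was not called (BY-adjusted p = 0.0750 by edgeR). With no filter on low counts the log2FC of HGA relative to primary AGASAC was 8.29 (BY-adjusted p = 1.30e-06 by edgeR). COL5A1, a chain that starts fibrils, was at 28.6 to 96.9 CPM in HGA and 10.5 to 328 CPM in primary AGASAC, with the highest value in primary AGASAC 7, and its log2FC of −1.15 had a BY-adjusted p of 0.127 by edgeR. Without primary AGASAC 1, the lowest of its group, the log2FC was −1.28 with a BY-adjusted p of 0.0102 by edgeR. The cartilage chain COL2A1 had 0 counts in HGA, 5 in primary AGASAC and 0 in the metastases.

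**Figure D3:**
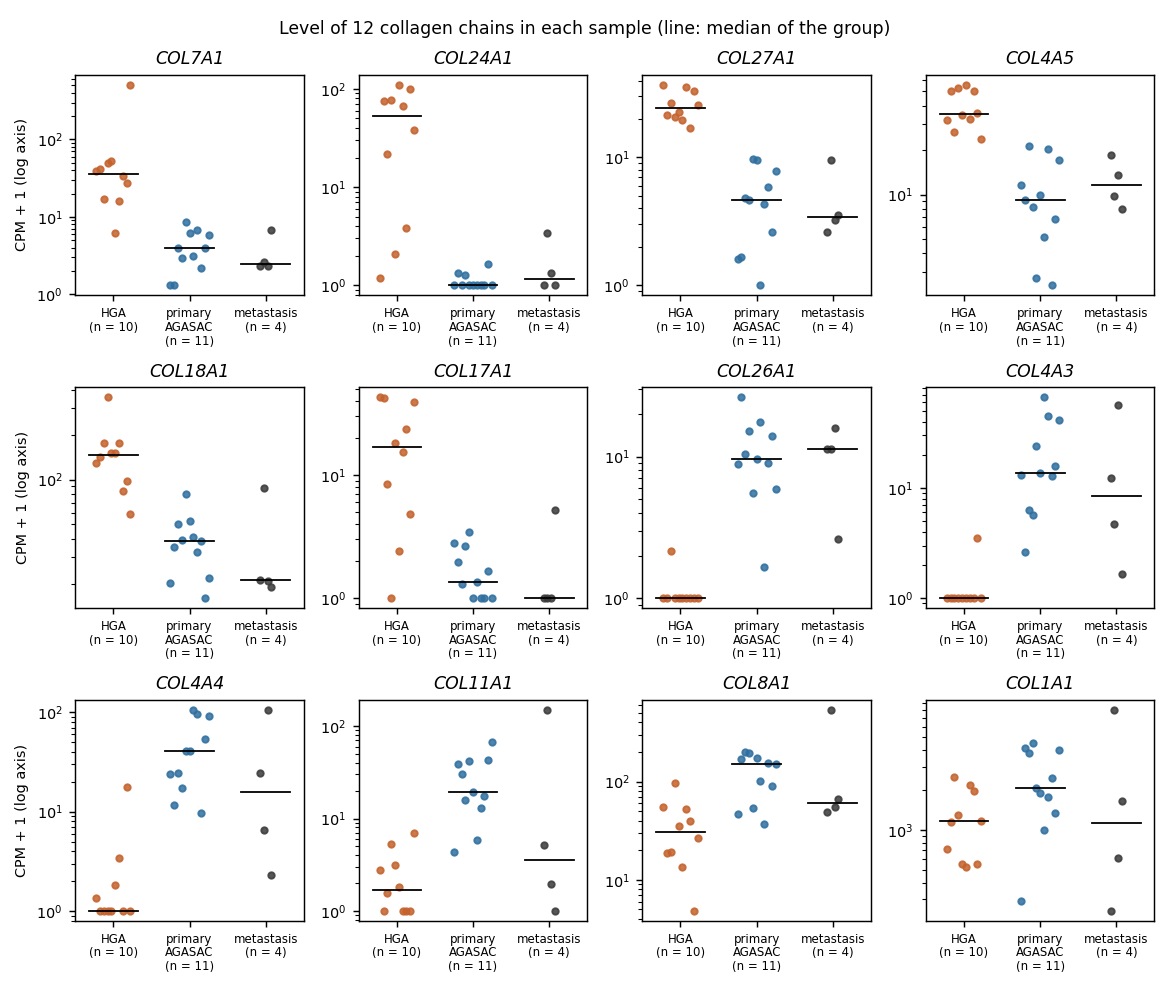
Points are the CPM + 1 of single samples on a log axis for 12 collagens in 10 HGA, 11 primary AGASAC and 4 metastases, and lines are group medians. COL27A1 and COL4A5 did not overlap between HGA and AGASAC, HGA 10 stood apart in COL7A1 at 512 CPM, and COL1A1 overlapped in all groups.

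Collagen IV has 6 chains that form separate networks, and its genes lie in neighboring pairs. Among 5 tested chains HGA relative to primary AGASAC had 1 “up” (COL4A5), 2 “down” (COL4A3 and COL4A4) and a median log2FC of −0.09, so the pairs differed from each other. COL4A1, a chain of the network found in nearly every basement membrane, was at 27.6 to 417 CPM in HGA (median 113), at 65.4 to 288 CPM in primary AGASAC (median 119) and at 62.6, 343, 96.5 and 113 CPM in the metastases. COL4A2, its partner in that network, was at 59.4 to 461 CPM in HGA (median 150), at 95.8 to 358 CPM in primary AGASAC (median 191) and at 98.6, 440, 91.7 and 179 CPM in the metastases. The groups overlapped almost fully in both chains, with HGA 4 as the highest and HGA 9 as the lowest sample of all, and the log2FC was −0.06 (SE 0.35) and −0.09 (SE 0.30).

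COL4A3, a chain of the network known from the kidney glomerulus, lung and inner ear, had 0 counts in 9 of 10 HGA and 2.55 CPM in HGA 9. It was at 1.63 to 65.4 CPM in primary AGASAC (median 12.7) and at 11.4, 3.71, 55.3 and 0.639 CPM in metastases 1 to 4. HGA 9 lay above primary AGASAC 2 and metastasis 4, and the other HGA lay below all AGASAC. The log2FC of HGA relative to primary AGASAC was −6.29 (SE 0.86, BY-adjusted p = 2.21e-05 by edgeR), and −4.84 within extraction batch 5, which held HGA 9, while it was not tested in series A. Without HGA 9, and within batches 6 and 8, HGA had 0 counts, so no size of the log2FC can be given there. With any of 10 of the 11 primary AGASAC left out, or with extraction batch as a term, COL4A3 no longer passed the filter on low counts.

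COL4A4, the neighbor and partner of COL4A3 in the same network, had 0 counts in 6 HGA, a median of 0 and a highest value of 16.5 CPM in HGA 9, where the next highest HGA had 2.43 CPM. It was at 8.60 to 104 CPM in primary AGASAC (median 39.6) and at 23.7, 5.57, 104 and 1.28 CPM in metastases 1 to 4. HGA 9 alone reached into the primary AGASAC, and metastases 2 and 4 lay within the HGA range. Relative to primary AGASAC, HGA had a log2FC of −4.44 (SE 0.81, BY-adjusted p = 0.000814 by edgeR), −6.38 without HGA 9, and −2.96, −6.90, −3.93 and −3.03 within extraction batches 5, 6 and 8 and series A. Primary AGASAC 7 and 8 had the most of both COL4A3 and COL4A4 among the primary AGASAC, and metastasis 3 had the most among the metastases.

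COL4A5, which enters networks with COL4A3 and COL4A4 or with COL4A6, went the other way. It was at 22.8 to 54.5 CPM in HGA (median 33.9), at 1.43 to 20.5 CPM in primary AGASAC (median 8.17) and at 17.5, 8.76, 12.5 and 7.03 CPM in metastases 1 to 4. Each of the 10 HGA lay above each of the 15 AGASAC samples, with HGA 10 as the lowest HGA. Its log2FC in HGA relative to primary AGASAC was 2.05 (SE 0.36, BY-adjusted p = 0.000531 by edgeR), and 2.39, 2.26, 2.67 and 1.63 within extraction batches 5, 6 and 8 and series A. Its neighbor COL4A6, a chain of epidermal and smooth muscle basement membranes, had 179 counts in HGA, 14 in primary AGASAC and 8 in the metastases, and was at 0.430 to 30.1 CPM in HGA (median 3.13), highest in HGA 4, and at most 2.19 CPM in primary AGASAC. It did not pass the filter between HGA and primary AGASAC, and with no filter its log2FC was 4.21 (BY-adjusted p = 0.00618 by edgeR).

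**Figure D4:**
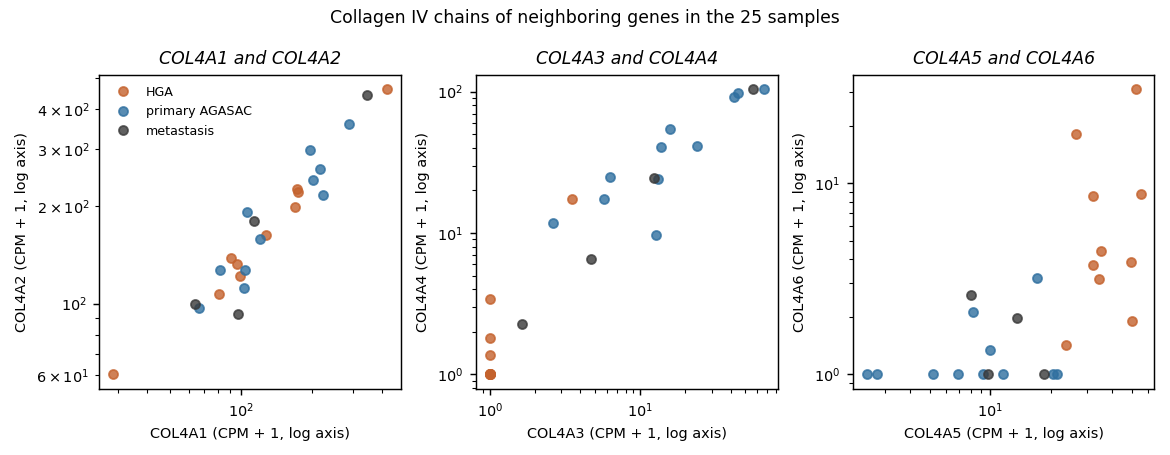
Each point is a sample, with the CPM + 1 of one collagen IV gene against that of its neighboring gene on log axes, colored by group. HGA and AGASAC shared one range in COL4A1 and COL4A2, HGA lay at the low end in COL4A3 and COL4A4 with HGA 9 nearest to AGASAC, and HGA lay at the high end in COL4A5.

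Among the 42 genes, 41 had an entry in the RefSeq gene table of the assembly UU_Cfam_GSD_1.0, which is not the build of the counts and was used only for which genes are neighbors. It listed 7 pairs of collagens next to each other, COL4A1 with COL4A2, COL4A3 with COL4A4, COL4A5 with COL4A6, COL3A1 with COL5A2, COL6A1 with COL6A2, COL6A5 with COL6A6, and COL9A1 with COL19A1. COL6A5 and COL6A6 differed in their counts, which were 3 and 20 in HGA, 90 and 16 in primary AGASAC, and 226 and 11 in the metastases.

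Collagen VI forms beaded filaments around cells, and 0 of its 3 tested chains were called by edgeR between HGA and primary AGASAC, with COL6A2 at an unadjusted p under 0.05. DESeq2, which tested all 5 chains of the table, called COL6A5. COL6A1, its most abundant chain, was at 71.3 to 359 CPM in HGA (median 217), at 48.5 to 316 CPM in primary AGASAC (median 145) and at 37.3, 286, 77.5 and 198 CPM in metastases 1 to 4. The groups overlapped, and the log2FC was 0.43 (SE 0.35). The largest log2FC among the 3 tested chains was 0.84 for COL6A2 and the median was 0.43. COL6A5, an alternative chain of this collagen, had 3 counts over the HGA, 90 over the primary AGASAC and 226 over the metastases, and 48.6 CPM in metastasis 2 was its highest value. Its pooled counts were 23.8-fold higher in primary AGASAC than in HGA (95% interval 7.89 to 118) and 163-fold higher in the metastases than in HGA (55.0 to 795), where each metastasis lay above each HGA. Metastasis 2 held 183 of the 226 counts, and without it the metastases were 43.5-fold higher (13.9 to 219). COL6A5 did not pass the filter in any comparison over all samples. Without metastasis 3, its lowest metastasis at 5 counts, it passed relative to the metastases and was called at −7.00 (BY-adjusted p = 0.000600 by edgeR). It passed there because the lowest sample of the higher group was left out, so that call is no added support for COL6A5. With no filter its log2FC in HGA was −3.93 relative to primary AGASAC (BY-adjusted p = 0.0366 by edgeR) and −6.63 relative to the metastases (BY-adjusted p = 0.000594 by edgeR).

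COL8A1, a short chain that builds networks in vessel walls and under endothelium, was at 3.82 to 95.3 CPM in HGA (median 29.9), at 35.8 to 201 CPM in primary AGASAC (median 150) and at 47.7, 531, 54.7 and 65.2 CPM in metastases 1 to 4. HGA 9 was the lowest and HGA 4 the highest HGA, and HGA 1, 4, 7 and 8 lay above primary AGASAC 8, the lowest primary AGASAC. Relative to primary AGASAC HGA had a log2FC of −1.80 (SE 0.42, BY-adjusted p = 0.0106 by edgeR), and −1.72, −2.36, −1.43 and −1.91 within extraction batches 5, 6 and 8 and series A. With age as a term in the fit COL8A1 was no longer called (log2FC −1.61, BY-adjusted p = 0.133 by edgeR). Relative to the metastases its log2FC was −2.29 and, without metastasis 2, −0.64. COL8A2, its sister chain, was tested and had a log2FC of 0.18 (SE 0.29).

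COL7A1, the chain of the anchoring fibrils that tie the basement membrane of stratified epithelium to the dermis, was at 5.102 to 512 CPM in HGA (median 35.2), at 0.301 to 7.64 CPM in primary AGASAC (median 2.94) and at 1.298, 1.59, 1.29 and 5.75 CPM in metastases 1 to 4. HGA 10 held the value of 512 CPM and the next highest HGA had 52.3 CPM, while HGA 6, the lowest, was the only HGA within the range of AGASAC. In HGA relative to primary AGASAC the log2FC was 4.64 (SE 0.72, BY-adjusted p = 0.000125 by edgeR), which was 3.28 without HGA 10 and 3.18 by DESeq2, and 4.104, 3.66, 1.91 and 4.62 within extraction batches 5, 6 and 8 and series A. HGA 10 was the single HGA in extraction batch 9 and in naming series B. Relative to the metastases the log2FC of 5.02 (SE 1.28) missed the threshold (BY-adjusted p = 0.0648 by edgeR), and COL7A1 was called there without HGA 6 at 5.17 and without HGA 10 at 3.62. Without metastasis 4 the value was 5.83 and was not called.

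COL17A1, the collagen that spans the basal cell membrane in hemidesmosomes, had 573 counts in HGA, 26 in primary AGASAC and 13 in the metastases, all 13 in metastasis 4. It was at 0 to 41.6 CPM in HGA (median 15.8), with 0 in HGA 4, at most 2.43 CPM in primary AGASAC, and at 4.15 CPM in metastasis 4. It did not pass the filter between HGA and primary AGASAC, and with no filter its log2FC was 4.58 (BY-adjusted p = 0.000435 by edgeR). Relative to the metastases its log2FC was 4.17 (SE 1.32, BY-adjusted p = 0.234 by edgeR), which rested on metastasis 4, as the metastases had 0 counts without it, and it was not called then either. Of its 8 hemidesmosome partners, 6 were “up” and 1 “down” in HGA relative to primary AGASAC, and 4 were “up” and 2 “down” relative to the metastases. Among all tested genes 12.6% were “up” and 12.5% “down” relative to primary AGASAC, and 8.4% and 7.69% relative to the metastases. The laminin chain LAMB3 had a log2FC of 7.34 (SE 0.65) and the integrin chain ITGA6 of 3.81 (SE 0.29) relative to primary AGASAC, whereas the cytoskeletal linker DST had −1.77 (SE 0.32). The summed level of the list had medians of 1229 CPM in HGA, 528 CPM in primary AGASAC and 523 CPM in the metastases, with the linker PLEC as its most abundant gene, and its part in the COL7A1 and COL17A1 levels was not tested.

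Membrane-spanning collagens had 0 of 4 genes tested between HGA and primary AGASAC and COL17A1 as the 1 tested between HGA and the metastases. COL23A1 had 201 counts over the HGA, of which 112 were in HGA 1, 14 over the primary AGASAC and 0 over the metastases, and at 1.21 to 20.3 CPM each HGA lay above each metastasis, at least 22.6-fold by the group means with 3 counts over the group as the floor and at least 15.3-fold without HGA 1. With HGA 3, 4, 5, 9 or 10 left out, it passed the filter and was called by edgeR relative to the metastases. These HGA had 3 to 5 counts each, so the call depended on which samples were kept and is no added support. COL25A1, known from neurons and the innervation of muscle, had 68 counts over the primary AGASAC, of which 66 were in primary AGASAC 7 at 23.1 CPM, and 2 over the HGA. COL13A1 was at 0 to 27.7 CPM in HGA, highest in HGA 4, and at 0 to 5.86 CPM in primary AGASAC.

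Fibril-associated collagens sit on the surface of fibers, and 3 of 9 genes were tested, with 0 called by edgeR between HGA and primary AGASAC. An unadjusted p under 0.05 was found for 2 of these 3, beside 6477 of all 12070 genes tested. DESeq2, which tested all 9, called COL9A3. COL16A1 had the largest log2FC of the class at 1.105 (SE 0.37, BY-adjusted p = 0.160 by edgeR), with HGA 10 highest at 123 CPM. COL12A1 had a log2FC of −0.91 and COL14A1 of 0.08, and metastasis 1, the sample with the least summed collagen, had the highest COL14A1 of the metastases at 115 CPM. COL9A3, a chain known from cartilage, had 72 counts over the HGA, 0 over the primary AGASAC and 1 over the metastases, and HGA exceeded primary AGASAC by at least 30.3-fold in group means with 3 counts over the group as the floor. HGA 8 had the highest value, 13.6 CPM, and 33 of the 72 counts, and without it the bound was 15.8-fold. The remaining genes of the class, COL9A1, COL9A2, COL19A1, COL21A1 and COL22A1, passed the filter in 0 comparisons.

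The multiplexins are collagens of basement membranes that carry sugar chains, and COL18A1 is also the source of the fragment endostatin. COL18A1 was at 57.6 to 354 CPM in HGA (median 144), at 15.0 to 79.1 CPM in primary AGASAC (median 37.9) and at 20.1, 86.2, 19.9 and 17.9 CPM in metastases 1 to 4. HGA 10, the lowest HGA, lay below primary AGASAC 5 and metastasis 2, and the 9 other HGA lay above all primary AGASAC, with HGA 8 also below metastasis 2. The log2FC of HGA relative to primary AGASAC was 2.02 (SE 0.30, BY-adjusted p = 6.62e-05 by edgeR), and 2.08, 1.67, 1.90 and 2.25 within extraction batches 5, 6 and 8 and series A. Relative to the metastases its log2FC of 2.08 (SE 0.51) missed the threshold (BY-adjusted p = 0.0534 by edgeR), and it was called without HGA 10 at 2.16 and without metastasis 2 at 2.99. COL15A1, the other multiplexin, had a log2FC of 0.73 (SE 0.37) relative to primary AGASAC and was highest in HGA 4 at 117 CPM. Multiplexins held a median of 5.76% of the collagen CPM in HGA, 1.62% in primary AGASAC and 2.13% in the metastases.

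Endothelial markers, which come from cells that also make basement membrane, were 2 “up” and 0 “down” of 7 tested in HGA relative to primary AGASAC, and 1 “up” of 8 relative to the metastases. The shares of all tested genes were 12.6% “up” and 12.5% “down”, and 8.4% and 7.69%, in these comparisons. The endothelial cadherin CDH5 had a log2FC of 1.47 (SE 0.38) and the tight junction gene CLDN5 of 1.95 (SE 0.51). Their summed level had medians of 295 CPM in HGA, 165 CPM in primary AGASAC and 165 CPM in the metastases, with VWF as the most abundant gene. Smooth muscle and pericyte markers were 1 “up”, RGS5 at 1.81 (SE 0.33), and 0 “down” of 6, with a median log2FC of −0.23 relative to primary AGASAC. Their summed level had medians of 250.4 CPM, 259.7 CPM and 185 CPM in the same order of groups, with TAGLN as the most abundant gene. The part of these cells in the COL18A1 and collagen IV levels was not tested.

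COL26A1, a secreted chain known from testis and ovary, had 2 counts over the 10 HGA, both in HGA 3 at 1.14 CPM. It was at 0.670 to 25.2 CPM in primary AGASAC (median 8.61) and at 10.4, 10.3, 14.8 and 1.60 CPM in metastases 1 to 4. HGA 3 lay above primary AGASAC 8, and all other HGA were at 0. Its pooled counts were 143-fold higher in primary AGASAC than in HGA (95% interval 39.4 to 1187) and 132-fold higher in the metastases (35.7 to 1101). The fitted log2FC of HGA relative to primary AGASAC was −6.44 (SE 0.73, BY-adjusted p = 1.50e-06 by edgeR), and −6.78 within series A. Without HGA 3, and within extraction batches 5, 6 and 8, HGA had 0 counts, so the size of the log2FC was not measured there. With any of 10 of the 11 primary AGASAC left out, or with extraction batch as a term, it no longer passed the filter on low counts. Relative to the metastases it did not pass the filter. Without metastasis 4, its lowest metastasis at 5 counts, it passed and edgeR called it at −6.60. That call followed from leaving out the lowest sample of the higher group and is no added support. COL28A1, the other unclassed chain, had 13 counts in HGA, 9 in primary AGASAC and 0 in the metastases.

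The metastases were compared with the primary AGASAC of the same 4 dogs to describe collagen at both sites of a tumor. In 0 of the 42 chains did all 4 dogs differ in the same direction. Chains with 0 counts at both sites of a dog could not do so, as COL25A1, COL28A1 and COL9A2 in all 4 dogs. The share among all genes was not computed, so the count says little about the collagens. The log2(CPM + 1) difference of metastasis minus primary in COL1A1 was −0.26, 0.95, −2.64 and −1.46 in dogs 1 to 4, and in COL4A1 it was −0.06, 1.69, −1.20 and −1.34. Dog 2 had more of most chains in its metastasis, dogs 3 and 4 had less, and dog 1 was low at both sites. Both samples of a dog shared an extraction batch in dogs 1, 2 and 3. Among the 23 tested collagens the largest log2FC by absolute size was 1.56 (SE 1.08) for COL4A3, followed by 0.87 (SE 1.51) for COL11A1 and 0.84 (SE 1.00) for COL4A4. Each changed sign with 1 metastasis left out, to −0.20 for COL4A3 and −0.89 for COL4A4 without metastasis 3, and to −3.63 for COL11A1 without metastasis 2. Their differences in dogs 1 to 4 were −0.08, 0.84, 3.15 and −1.80 for COL4A3, 0.27, 1.94, −3.96 and −3.98 for COL11A1, and 0.03, −0.84, 2.08 and −2.93 for COL4A4. Thus dog 3 had more COL4A3 and COL4A4 but less COL11A1 in its metastasis, and dog 4 had less of all 3. COL6A5, which did not pass the filter, had 226 counts in the metastases and 14 in the matched primary AGASAC, with means of 15.6 and 1.01 CPM. Its differences were 2.90, 5.63, −0.24 and 1.196 in dogs 1 to 4, so dogs 1, 2 and 4 had more in the metastasis.

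The standard errors of this comparison come from a fit that did not pair the samples of a dog, and they were large beside the differences. Without metastasis 2 the log2FC became −1.94 from −0.27 for COL1A1, −3.63 from 0.87 for COL11A1 and −1.46 from 0.21 for COL8A1. In that fit 7 of 23 collagens had an unadjusted p under 0.05 by edgeR, beside 290 of 12907 genes, and 0 collagens were called. With the dog as a block, which pairs the samples, edgeR called 0 of 23 collagens and 1 of 12629 genes. In that paired fit the unadjusted p was under 0.05 in 0 of the 23 collagens, beside 491 of the 12629 genes. Metastasis 2 also had the most smooth muscle and pericyte markers of all samples at 784 CPM and the most collagen-binding matrix at 4535 CPM, and primary AGASAC had a median of 169.9 CPM of skeletal muscle markers, the metastases 5.03 CPM and HGA 2.43 CPM. The part of these tissues was not tested.

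**Figure D5:**
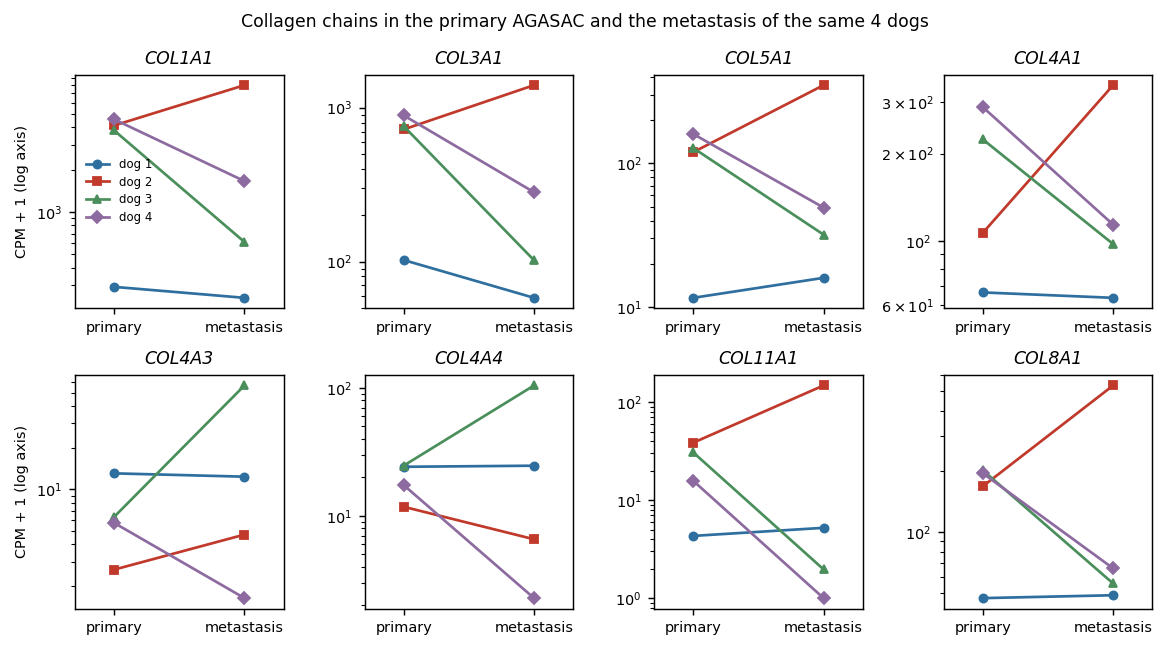
Lines join the primary AGASAC and the metastasis of a dog, with CPM + 1 on a log axis, for 8 collagens in 4 dogs. The line of dog 2 ran upward for COL1A1 (difference 0.95 in log2) and those of dogs 3 and 4 ran downward (−2.64 and −1.46), while COL4A3 ran upward most in dog 3 (3.15).

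HGA relative to the metastases had COL27A1 “up” at a log2FC of 2.73 (SE 0.44, BY-adjusted p = 0.00190 by edgeR) and COL4A5 “up” at 1.77 (SE 0.32, BY-adjusted p = 0.00542 by edgeR), with each HGA above each metastasis in both genes. Leaving out metastasis 2 moved COL27A1 to 3.54. The batches that held both were extraction batch 5, with 3 HGA and 2 metastases, and batch 8, with 2 and 2. Mean COL27A1 was 22.5 CPM in HGA and 2.40 CPM in the metastases of batch 5, and 26.5 and 5.06 CPM in batch 8, and mean COL4A5 was 45.0 and 9.79 CPM in batch 5 and 42.9 and 13.1 CPM in batch 8. COL4A4 had a log2FC of −3.98 (SE 1.18) and COL4A6 of 3.49 (SE 1.204), and neither was called. The COL4A4 value was −2.23 without metastasis 3, and the COL4A6 value was 4.42 without metastasis 4. COL4A3 did not pass the filter. Without metastasis 4, its lowest metastasis at 2 counts, it passed and edgeR called it at −6.39. That call followed from leaving out the lowest sample of the higher group and is no added support. The abundant chains had log2FC of −1.04 (SE 0.65) for COL1A1, −0.77 (SE 0.61) for COL1A2, 0.15 (SE 0.67) for COL3A1, −0.05 (SE 0.54) for COL4A1, −0.12 (SE 0.47) for COL4A2 and 0.46 (SE 0.54) for COL6A1. COL1A1, COL1A2, COL4A1 and COL4A2 changed sign without metastasis 2, where all 6 values were above 0, at 0.61, 0.67, 1.79, 0.71, 0.60 and 0.98 in the same order, and 0 of them were called.

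Chains were compared across the samples of a tumor on the log2(CPM + 1) scale in 10 relations, by two-sided permutation tests with 100000 resamples. Each tumor had 4 relations between chains that assemble in one molecule and 1 between COL1A1 and COL17A1, which do not. Pearson's r passed a Benjamini-Hochberg adjusted 0.05 in 8 of 10. In the 10 HGA COL4A1 and COL4A2 had r = 0.988 (permutation p = 3.00e-05, adjusted 0.000200) and rho = 0.939 (permutation p = 0.000270, adjusted 0.00135), with r = 0.973 without HGA 4 and HGA 9 and 0.988 within series A. In the 11 primary AGASAC the same pair had r = 0.930 (permutation p = 0.000140, adjusted 0.000320) and rho = 0.900 (permutation p = 0.000410, adjusted 0.00137), with 0.923 without primary AGASAC 3 and 4 and 0.944 within the 7 samples of series B. COL1A1 and COL1A2 had r = 0.863 and rho = 0.794 in HGA and 0.980 and 0.891 in primary AGASAC, and COL6A1 and COL6A2 had 0.914 and 0.806, and 0.890 and 0.918, with permutation p of 4.00e-05 to 0.000340 for r (adjusted 0.000200 to 0.000567) and of 0.000190 to 0.00832 for rho (adjusted 0.00135 to 0.0139). Leaving out 2 samples gave r of 0.799, 0.949, 0.887 and 0.873 in that order, and the naming series gave 0.876, 0.918, 0.897 and 0.719. The pairs COL4A3 with COL4A4 and COL4A5 with COL4A6 were not tested this way.

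COL5A1 and COL5A2, the chains of collagen V, had r = 0.810 (permutation p = 0.00130, adjusted 0.00186) and rho = 0.782 (permutation p = 0.0104, adjusted 0.0149) in HGA, with 0.841 without HGA 5 and HGA 9 and 0.801 within series A. In primary AGASAC they had r = 0.730 (permutation p = 0.0313, adjusted 0.0391), but rho = 0.518 did not pass (permutation p = 0.108, adjusted 0.135), and within the 7 samples of series B r was 0.0910, so the relation did not hold there. Without primary AGASAC 1 and 7, the samples farthest from the median COL5A1, r was 0.863. COL1A1 and the epithelial COL17A1 had r = 0.143 (permutation p = 0.693, adjusted 0.693) and rho = 0.0545 (permutation p = 0.891, adjusted 0.891) in HGA. In primary AGASAC COL17A1 had 0 to 7 counts a sample, too few to tell a relation.

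Abundant chains of different molecules, COL1A1, COL4A1 and COL6A1, were compared with each other in 6 further relations that were chosen after the values had been seen and were adjusted among themselves. In HGA 0 of 3 passed, with r of 0.525, 0.622 and 0.588 for COL1A1 with COL4A1, COL1A1 with COL6A1 and COL4A1 with COL6A1 (permutation p = 0.116, 0.0593 and 0.0618, adjusted 0.116, 0.0742 and 0.0742) and rho of 0.709, 0.564 and 0.673 (permutation p = 0.0266, 0.0966 and 0.0397, adjusted 0.0531, 0.0966 and 0.0596). In primary AGASAC 2 of 3 passed by r. COL4A1 and COL6A1 had r = 0.826 (permutation p = 0.00144, adjusted 0.00864) and rho = 0.855 (permutation p = 0.00156, adjusted 0.00936), with r = 0.719 without primary AGASAC 3 and 4 and 0.572 within series B. COL1A1 and COL6A1 had r = 0.783 (permutation p = 0.00330, adjusted 0.00990), but rho = 0.709 did not pass (permutation p = 0.0180, adjusted 0.0531), and r was 0.550 without primary AGASAC 1 and 4. COL1A1 and COL4A1 had r = 0.586 (permutation p = 0.0509, adjusted 0.0742) and rho = 0.573 (permutation p = 0.0706, adjusted 0.0847), and r was 0.151 without primary AGASAC 1 and 4. Within series B r was 0.607 for COL1A1 with COL6A1 and 0.127 for COL1A1 with COL4A1. Thus COL4A1 with COL6A1, chains of different molecules, was the relation that passed by both r and rho in primary AGASAC. Whether these relations differed between the tumors was not tested. Extraction batches held too few samples for any of these relations.

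The enzymes that modify and fold collagen in the cell had 1 “up” and 3 “down” of 14 tested in HGA relative to primary AGASAC, with a median log2FC of −0.06, and 1 “up” and 3 “down” of 14 relative to the metastases. All tested genes had 12.6% “up” and 12.5% “down” relative to primary AGASAC, and 8.4% and 7.69% relative to the metastases. PLOD2, which hydroxylates lysines used for cross-links, had medians of 6.87 CPM in HGA, 172 CPM in primary AGASAC and 234 CPM in the metastases, with a log2FC of −4.57 (SE 0.34) relative to primary AGASAC. P3H2, a prolyl 3-hydroxylase of basement membrane collagen, had medians of 17.4, 0.326 and 0.752 CPM, with a log2FC of 4.98 (SE 0.56). P4HB, a subunit of prolyl 4-hydroxylase and the most abundant gene of the list, had a log2FC of −1.46 (SE 0.17), and PLOD3, a lysyl hydroxylase, of −1.19 (SE 0.33). HGA and primary AGASAC did not overlap in PLOD2, at 4.08 to 28.3 CPM and 130 to 350 CPM, nor in P3H2, at 5.93 to 33.5 CPM and 0 to 1.40 CPM. The summed level of the list was 1104 to 1453 CPM in HGA (median 1282), 1719 to 2357 CPM in primary AGASAC (median 2001) and 1840.4 to 2412 CPM in the metastases (median 2199).

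The genes that trim and cross-link collagen outside the cell had 3 “up” and 1 “down” of 12 tested relative to primary AGASAC, with a median log2FC of −0.70, and 2 “up” and 0 “down” of 12 relative to the metastases. Over all tested genes the shares were 12.6% “up” and 12.5% “down”, and 8.4% and 7.69%. ADAMTS3, a protease that removes the amino-terminal propeptide, had medians of 32.2 CPM in HGA, 0.301 CPM in primary AGASAC and 0 CPM in the metastases, with a log2FC of 6.37 (SE 0.59) relative to primary AGASAC. The carboxy-terminal propeptide proteases TLL1 and BMP1 had log2FC of 3.26 (SE 0.48) and 1.79 (SE 0.39). TLL2, of the same family, did not pass the filter and had 1 count over the HGA and 587 over the primary AGASAC, of which 367 were in primary AGASAC 8. LOXL1, an enzyme of the lysyl oxidase family and the most abundant gene of the list, had −1.12 (SE 0.24). The summed level had medians of 300.4 CPM in HGA, 272 CPM in primary AGASAC and 136 CPM in the metastases.

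Collagen receptors had 0 “up” and 1 “down” of 8 tested relative to primary AGASAC, the receptor kinase DDR1 at −1.52 (SE 0.33), with a median log2FC of −0.78. The integrin chain ITGB1 was their most abundant gene, and their summed level had medians of 403 CPM in HGA, 749 CPM in primary AGASAC and 778 CPM in the metastases. Matrix proteins that bind collagen had 0 “up” and 3 “down” of 15, fibronectin (FN1) at −2.73 (SE 0.53), thrombospondin 2 (THBS2) at −2.26 (SE 0.44) and fibromodulin (FMOD) at −1.55 (SE 0.38), with a median log2FC of −0.66. Decorin (DCN), the small proteoglycan on collagen fibers, was the most abundant gene of this list, at medians of 779 CPM in HGA, 517 CPM in primary AGASAC and 352 CPM in the metastases. Relative to the metastases 0 of 8 receptors and 0 of 15 matrix proteins were called by edgeR, beside 8.4% “up” and 7.69% “down” among all tested genes. Relative to primary AGASAC the shares of all tested genes were 12.6% and 12.5%. None of these lists had a call between the metastases and the matched primary AGASAC by edgeR.

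Markers of other cells that perianal tissue or a lymph node can hold were read beside the collagens. For their counts, the shares of all tested genes were 12.6% “up” and 12.5% “down” relative to primary AGASAC, and 8.4% and 7.69% relative to the metastases. Skeletal muscle markers were 0 “up” and 3 “down” of 3 tested in HGA relative to primary AGASAC, with ACTA1, the most abundant, at medians of 0 CPM and 63.4 CPM, TTN at 0.181 and 32.2 CPM, and MYLPF at 0.639 and 15.4 CPM. Adipocyte markers were 2 “up”, LPL at 4.41 (SE 0.59) and FABP4 at 3.92 (SE 0.49), and 1 “down”, ADIPOQ at −4.04 (SE 0.98), of 4, and 1 “up” of 4 relative to the metastases. Lymph node stroma and B cell markers were 1 “up” of 1 tested, CCL21 at 4.28 (SE 0.59), and 1 “up” of 4 relative to the metastases. The median log2FC of these 4 was −0.68, so the list did not go 1 way. T cell markers had 0 of 2 called by edgeR relative to primary AGASAC and 0 “up” and 1 “down” of 7 relative to the metastases. Macrophage markers had 0 “up” and 1 “down” of 8, C1QB at −1.26 (SE 0.29), with C1QA as the most abundant. Cartilage and bone markers had 0 of 1 called by edgeR, BGLAP, and none of the 6 Schwann cell markers was tested. The part of these cells in the collagen differences was not tested.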

How the data were processed

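The authors trimmed the QuantSeq 3′ reads with Cutadapt, aligned them with STAR to CanFam3.1 and counted them with featureCounts, repeating the count for unassigned reads on genes lengthened at their 3′ end and sharing multi-mapped reads evenly. The deposited count of each gene and sample was used without normalization. The same table holds a signal, the authors' size-factor-scaled counts with their mean, and the log2 fold change and p-value of the authors' own comparison, which were not used. It lists 24532 genes, 8449 of them by LOC number, and no column of per-sample values lacked a sample (0 unused). COL6A4, COL10A1 and COL20A1 were not analysed here.

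Counts were tested in R 4.3.3 with edgeR 4.0.16 (limma 3.58.1) by its quasi-likelihood test on TMM-scaled libraries after filterByExpr (minimum count 10, minimum total count 15), over all genes and with no covariate. P-values were adjusted by Benjamini-Yekutieli, and genes were called at an adjusted p of at most 0.05 and an absolute log2FC of at least 1. The SE of a log2FC is its absolute size over the square root of F. Levels are CPM with TMM factors over 25 samples, and log2 levels have a pseudocount of 1. DESeq2 1.42.0 was an alternative, and the others were RLE, library size alone, other filters, Benjamini-Hochberg, each sample left out, batch, DV200, neutering or age as a term, fits within batches, all 15 AGASAC, the dog as a block, and the metastases against all 11 primary AGASAC. Extraction batches and file naming series are from the study's sample records, and no naming series was given for primary AGASAC 4. The steps were tested on simulated data. Correlations were computed in Python 3.11.15 with numpy 2.4.6 and scipy 1.17.1, and plots with matplotlib 3.10.9.

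Metastasis and primary tumor of a dog are from the same animal per the labels. Their log2 levels, each less its mean over the 4 samples of its site, correlated across genes with a mean over 1 CPM at 0.688, 0.480, 0.538 and 0.411 in dogs 1 to 4, and 4 of 4 metastases correlated best with their own among these 4 primary AGASAC. No pair of samples in a group agreed within sampling noise (chi-square per degree of freedom of at least 12.2, 24.7 and 32.6 in HGA, primary AGASAC and metastases). Values per sample are given for collagens called in any comparison, at most 12 each, and for the 6 with the highest mean CPM. From each other list the called genes with the largest absolute log2FC, at most 3 in each direction, and the most abundant gene are named. Members and lists were chosen with earlier results of these data known.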

Additional observations from a re-analysis of the deposited data

Results flagged for a closer look

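A sample was far from the rest of its group in 9 of 56 groups of values, taken over 28 collagens in HGA and in the metastases on the log2(CPM + 1) scale, and chance gives about 1 in 20. In HGA these were COL7A1 in HGA 10 at 512 CPM (next 52.3), COL26A1 in HGA 3 at 1.14 CPM (others 0), COL4A3 in HGA 9 at 2.55 CPM (others 0), COL4A4 in HGA 9 at 16.5 CPM (next 2.43) and, on the low side, COL5A2 in HGA 9 at 12.7 CPM (next 36.6). In the metastases they were COL7A1 in metastasis 4 at 5.75 CPM (next 1.59), COL17A1 in metastasis 4 at 4.15 CPM (others 0), COL18A1 in metastasis 2 at 86.2 CPM (next 20.1) and COL8A1 in metastasis 2 at 531 CPM (next 65.2). HGA 9 had the highest DV200 of the samples, 92.7, and HGA 10 was the single HGA of extraction batch 9. For COL26A1 in HGA 3, COL4A3 in HGA 9 and COL17A1 in metastasis 4, which had 2, 6 and 13 counts, the rest of the group was at 0, so the gap equals the range at any value above 0. The chance share does not describe these 3, and without them 6 of 53 groups had such a sample. The 9 values came from 5 samples, 3 of them named more than once, so the groups are not independent and the share is a rough guide. The 2 counts of COL26A1 are under the floor of 3 counts.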

How the results depend on the processing

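Between HGA and primary AGASAC edgeR called 9 collagens of 25, and 15 of 42 with no filter on low counts. DESeq2 called 15 of 42, and edgeR 1 with at least 10 counts required in every sample. Within extraction batches 5, 6 and 8, which have fewer samples, edgeR called 0, 2 and 1 (the 1 in batch 8 was COL24A1). Over all genes the reported fit called 1523 “up” and 1509 “down” of 12070, and 1910 and 2041 of 24332 with no filter. DESeq2 called 2071 and 2278 of 24332, and the filter of 10 counts gave 824 and 628 of 7410. The batches gave 160 and 102 of 12356, 347 and 290 of 13159, and 220 and 118 of 13758. The strict filter left 16 collagens to test. The collagens gained with no filter and by DESeq2 were COL24A1, COL17A1, COL23A1, COL6A5, COL4A6 and COL9A3 in both. With 1 sample left out the collagen count was 7 to 9. Between HGA and the metastases the collagen count was 2 of 26. It was 7 of 40 with no filter, 9 of 40 by DESeq2 and 10 of 26 with Benjamini-Hochberg adjustment. Over all genes the reported fit called 1109 “up” and 1015 “down” of 13195, and 998 and 1225 of 23678 with no filter. DESeq2 called 1628 and 1400 of 23678, and Benjamini-Hochberg adjustment gave 1918 and 1618 of 13195. With 1 sample left out 2 to 5 collagens were called, with 5 without HGA 10 and 5 without metastasis 4. Between the metastases and the matched primary AGASAC the collagen count was 0 in all alternatives, the block for the dog that pairs the samples included. No paired analysis was possible between HGA and AGASAC because equal numbers name different dogs. Library size alone moved the all-gene median log2FC from −0.03 to −0.33 relative to primary AGASAC and from 0.02 to −0.26 relative to the metastases, and the genes called “up” and “down” from 1523 and 1509 to 1053 and 2156 and from 1109 and 1015 to 788 and 1383. Of 1090 log2FC of single genes under an alternative, 1035 kept their side of the threshold, 27 passed it and 28 lost it, and none reversed while called. They cover the collagens named for their calls or abundance and those whose call changed under an alternative. Genes that the reported fit did not test are not among them. Nor are called genes that an alternative did not test, so calls lost through a filter, as for COL26A1 and COL4A3, are not counted as lost. Depth limits genes near the floor, and 4 metastases limit that group.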
